A study of Acrobeloides nanus with 194 samples.

Results

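The transcripts of single blastomeres were compared between embryos of 4 cells and embryos of 3 cells in Acrobeloides nanus, a parthenogenetic free-living nematode. The comparison takes every library whose title gives 3 or 4 cells and whose total is 10000 counts or more, which is 28 of the 33 libraries titled so and 14.4% of the libraries of the series. Eggshells were removed, the cells of each embryo were separated by hand and frozen one by one, and RNA was amplified with CEL-Seq2, which reads transcripts at their 3' end and marks each cell with its own barcode. The 3-cell libraries hold AB (7 libraries), EMS (4) and P2 (5), 16 in all. The 4-cell libraries hold AB (3), EMS (1), C (2), P3 (4) and cells titled p4 (2), 12 in all. The 5 libraries left out for depth were 1 EMS and 1 P2 of the 3-cell stage and 3 C of the 4-cell stage. No strain, treatment or embryo age is given in the labels used here, and no group carries a perturbation.

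In a nematode embryo the zygote divides into a somatic founder cell, AB, and a germline-side cell, P1. P1 then gives EMS, which in Caenorhabditis elegans founds gut, muscle and pharynx, and P2, which divides into the somatic cell C and the next germline precursor, P3. The early cells start with RNA laid down by the mother, to which transcripts of the embryo's own genome are added, and in C. elegans the germline precursors are kept transcriptionally silent while their somatic sisters begin to transcribe. Per the titles, the step from 3 to 4 cells is the division of P2 alone, so AB and EMS keep their names and C, P3 and p4 stand in the place of P2. The count table numbers its rows and gives no gene names, so a transcript is called here by its row number, its role cannot be given, and no cell type marker could be looked up to check the titled cell types. No embryo carries a cell of the same name more than once, so replicates of a named cell come from different embryos, while cells of different names can come from the same embryo.

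Depth differed between the stages before any transcript was compared. The 3-cell libraries held from 23755 to 307179 counts and the 4-cell libraries from 10179 to 126438, a difference in mean log10 total of -0.37 (two-sided permutation test, 100000 resamples, p = 0.00903, adjusted p = 0.0452 over 5 tests of whole libraries). At full depth a 3-cell library had at least 1 count in 12447 ± 3223 rows (SD, n = 16) and a 4-cell library in 9376 ± 3202 (SD, n = 12), a difference whose adjusted p was 0.0515 in the same permutation test. With every library thinned to 10000 counts, the detected rows came to 4671 ± 696 at 3 cells and 4399 ± 483 at 4 cells. That difference of -272 rows did not pass (permutation p = 0.254). The share of counts in a library's own 100 most abundant rows was 26.2% ± 10.8 at 3 cells and 31.2% ± 8.71 at 4 cells, which did not differ past the spread between libraries (permutation p = 0.194, adjusted p = 0.242). That share was taken at full depth, not after thinning, so it is not separated from the difference in depth. The deepest library, 3-cell AB replicate 1, had the lowest share, 12.9%, while 4-cell EMS replicate 5, the deepest of its stage, had 36.7%. How far depth set the share was not tested. Sample numbers above 100, carried by 5 libraries, occur at the 4-cell stage alone, so those libraries have no 3-cell counterpart. Without them the difference in mean log10 total was -0.21 and did not pass (permutation p = 0.182). What the number stands for is not given in the sources used here.

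**Figure D1:**
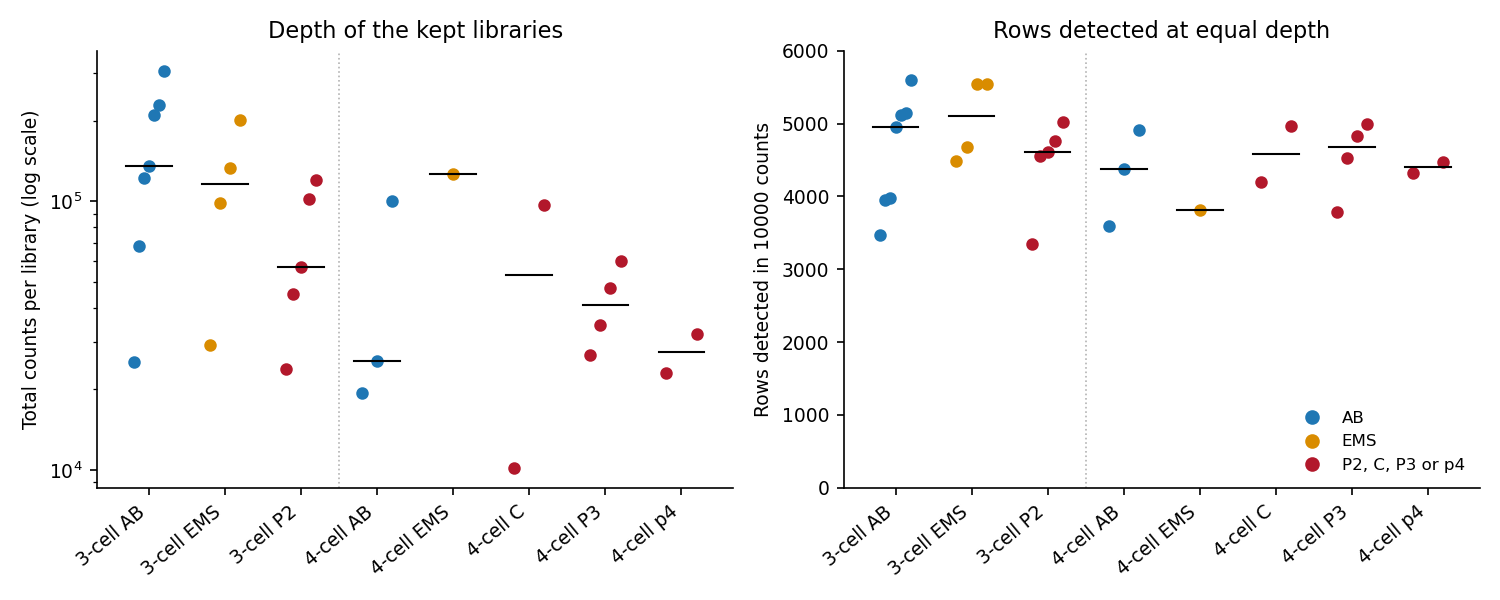
Left, total counts of the 28 kept libraries on a log axis; right, rows with at least 1 count after thinning each library to 10000 counts. Each point is a library, lines are group medians and colour gives the branch; 4-cell libraries are shallower, and at equal depth the stages overlap.

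The abundant transcripts were largely shared by the stages. Of the 10 rows with the highest mean level at 3 cells, 6 were among the 10 highest at 4 cells, and 75 of 100 and 710 of 1000 were shared in the same way. Levels are given as CPM, the count of a row scaled to the same total in every library. Over the tested rows the stage means correlated at r = 0.878 on the log2(CPM + 50) scale, a description over rows, which are not independent. Pairs of libraries were about as alike across the stages as within the 3-cell stage. Over 89 abundant rows the mean correlation was 0.457 for pairs of 3-cell libraries, 0.543 for pairs of 4-cell libraries and 0.460 for pairs that joined the stages. The mean over same-stage pairs minus that over mixed pairs was 0.0278, which did not pass a permutation of the stage labels (p = 0.130, adjusted p = 0.217). The spread of a row between libraries of the same branch and stage, as edgeR's common biological coefficient of variation, was 75.6% at 3 cells and 64.9% at 4 cells.

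No row passed the test of the stage difference in the main comparison of all blastomeres. Counts were fitted with edgeR's quasi-likelihood test with branch (AB, EMS, or P2 with the cells that descend from it) and stage as terms, and the threshold for a call was an adjusted p (Benjamini-Hochberg) under 0.05. Of 16853 rows, 643 had enough counts to enter the test, and they held from 26.7% to 57.1% of a library's counts. The number called was 0 (0%), the smallest adjusted p was 0.214, and 63 rows (9.8%) had an unadjusted p under 0.05, of which 37 were higher and 26 lower at 4 cells. DESeq2 called 12 of the same 643 rows (1.87%), 3 higher and 9 lower. The median fold change was -0.02 (log2, 4-cell minus 3-cell), and 49.1% of rows were above 0.

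The intervals set how large a difference could have been missed. The 95% interval of a row's log2 fold change reached 0.92 to either side at the median. For 20.1% of the rows the whole interval lay within 1 log2 unit of 0, and for 544 rows (84.6%) it lay within 2. The remaining 16210 rows had too few counts to be tested.

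**Figure D2:**
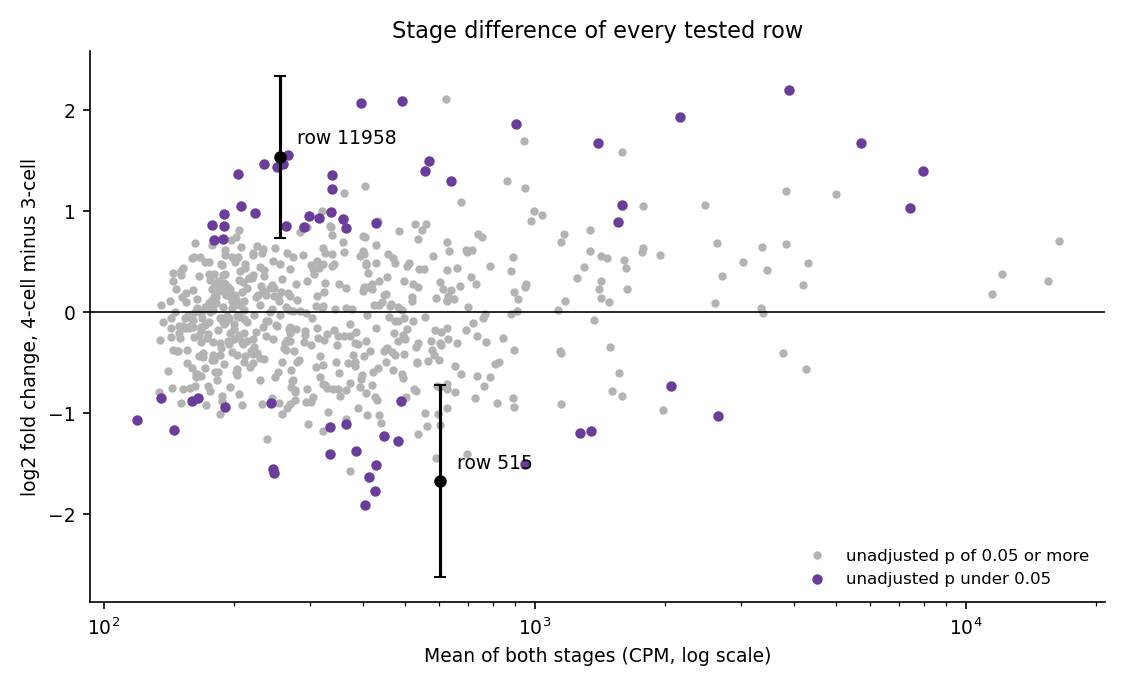
Log2 fold change of each of the 643 tested rows between the stages, 4-cell minus 3-cell, against its mean level in CPM on a log axis. Purple points are the 63 rows with an unadjusted p under 0.05, bars on row 11958 and row 515 are 95% intervals, and no point passed the adjusted threshold.

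Row 11958 had the smallest p of the rows that were higher at 4 cells, and its high values were those of the AB and EMS cells. In AB it stood at 65.7 CPM at the lowest, 221 at the median and 326 at the highest of 7 libraries of the 3-cell stage. The 3 AB libraries of the 4-cell stage read 537, 1018 and 1651 CPM, so the groups did not overlap. The row was picked for its small p in these same libraries, and how many tested rows separate them likewise is not given here. In EMS it read 60.7, 114.3, 149.5 and 275 CPM at 3 cells and 356 CPM in the single 4-cell library. In P2 it read 0, 52.6, 58.03, 58.7 and 132.5 CPM, and in the 8 libraries of C, P3 and p4 from 0 to 261 CPM with a median of 78.7, so P2 and the cells after it overlapped. The 4 libraries of the 4-cell stage above every 3-cell library were the 3 of AB and the 1 of EMS. The counts behind these levels were small, 26, 32 and 54 in 4-cell AB and 5 to 100 in 3-cell AB.

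The stage difference of row 11958 was 1.54 ± 0.39 (log2, standard error, n = 16 and 12), with an adjusted p of 0.214 by edgeR's quasi-likelihood test. Within AB it was 2.17 ± 0.60 (adjusted p = 0.577; 5.6% of rows, 36, had an unadjusted p under 0.05 there, 23 of them higher), and DESeq2 called it in that comparison, its single call among 643 rows (0.156%). Between P2 and its descendants the difference was 0.74 ± 0.65. The difference between these 2 differences was -1.43 ± 0.90 with an adjusted p of 0.978, so a difference between the branches was not established. Without 3-cell AB replicate 2 the adjusted p within AB was 0.0545, above the threshold.

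Row 11958 kept this order of cells at 5 and 6 cells, in libraries that the stage comparison does not hold. It read 1503 CPM in 5-cell AB, 732 and 1244 CPM in 5-cell EMS, 1082 CPM in 6-cell AB and 1961 CPM in 6-cell EMS. In the 6 libraries titled C, P4, p4, DP4 or P4D of those stages it ran from 85.4 to 508 CPM, below all 5 of AB and EMS. At 1 and 2 cells it ran from 0 to 185.9 CPM over 17 libraries. In a fit of the 11 libraries of 5 and 6 cells against those 17, with every row holding a count tested, row 11958 was higher by 3.07 ± 0.52 (log2; edgeR's quasi-likelihood adjusted p = 0.000276; 558 of 16847 rows, 3.31%, were called, of which those higher were 1.53% of the rows tested). Under the default filter the row did not enter that comparison. At 13 cells libraries titled AB read 351 to 859 CPM and all others 0 to 879 CPM, which overlapped. Those others mix titles such as MS and E with titles such as C and P4, so the order above was not read there. At 16 cells the row read 41.5 and 121.75 CPM in AB and 676 CPM in the single other library, titled MS. No 16-cell library is titled C or P4, so that order could not be read at 16 cells either.

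**Figure D3:**
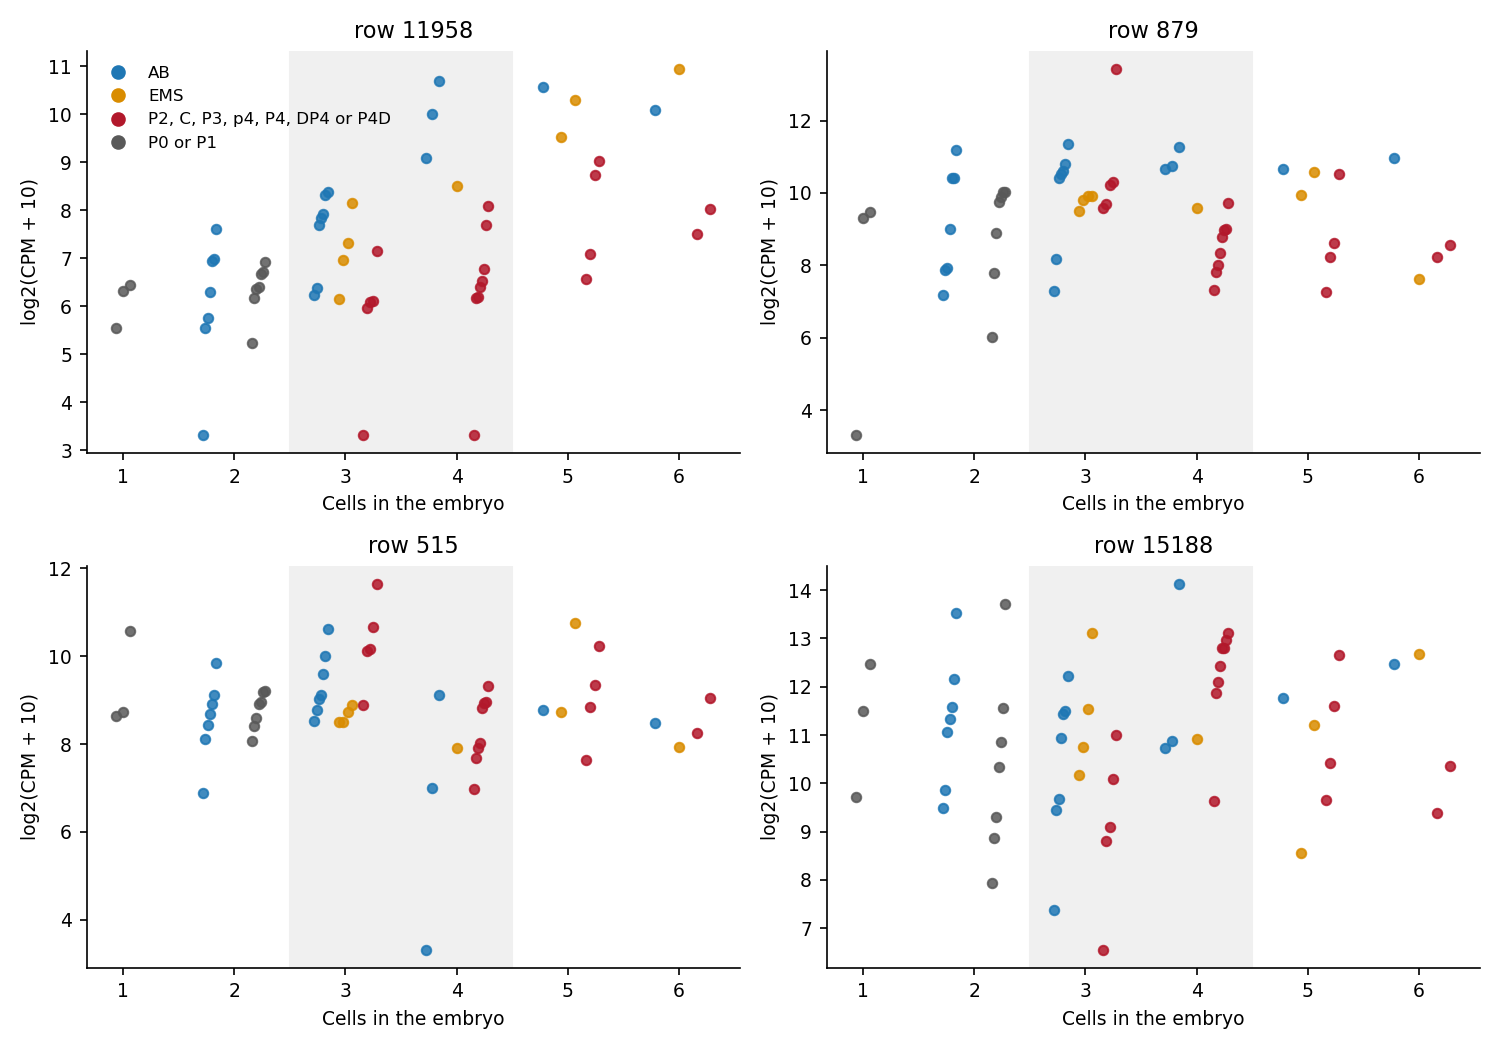
Level of row 11958, row 879, row 515 and row 15188 as log2(CPM + 10) in each library from 1 to 6 cells, coloured by the titled cell; the shaded band holds the 3- and 4-cell libraries. In row 11958 the AB and EMS libraries stand apart upward from 4 cells on, in row 879 1 P2 library stands far above the others, and in row 515 and row 15188 the 5- and 6-cell libraries overlap those of 1 and 2 cells.

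Row 515 had the smallest p of the rows that were lower at 4 cells. It ran from 351 to 3199 CPM with a median of 532 at 3 cells and from 0 to 634 CPM with a median of 241 at 4 cells. Of the 12 4-cell libraries 7 were below every 3-cell library and 10 were below the 3-cell median. The row was picked for its small p in these libraries, and how many tested rows separate so is not given here. At the median total of 64142.5 counts, 10 counts are 155.9 CPM, so the lowest of its 4-cell levels rest on few counts. The low libraries came from all titled cells, with 0, 117.4 and 547 CPM in AB, 229 in EMS, 196 and 486 in C, 115.8 to 634 in P3 and 249 and 478 in p4. Its log2 difference was -1.67 ± 0.47 (edgeR quasi-likelihood adjusted p = 0.214), and DESeq2 called it. The fold change was -1.84 ± 0.90 within AB and -1.96 ± 0.64 within the P2 branch. At 5 and 6 cells the row read 190.7 to 1709 CPM with a median of 428, and at 1 and 2 cells 108.4 to 1510 CPM with a median of 416, so both medians stood above the 4-cell median, with ranges that overlapped it. Of the 5 libraries with sample numbers above 100, 4 read under 351 CPM in this row, and without the 5 the 4-cell median was 443 CPM.

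Within AB, row 12271 had the smallest p among rows that were lower at 4 cells. It read from 79.3 to 517 CPM in the 7 AB libraries of the 3-cell stage and 0, 0 and 109.4 CPM in the 3 of the 4-cell stage. The library at 109.4 CPM lay within the 3-cell range, and the other two held 0 counts in totals of 19380 and 25547 counts. The difference was -1.94 ± 0.74 (log2) and did not pass (edgeR quasi-likelihood adjusted p = 0.577). Without 4-cell AB replicate 4 both remaining 4-cell libraries held 0 counts, and the fitted value of -7.45 (adjusted p = 0.0779) is then no measure of size. The AB comparison called 0 rows (0%) and its median fold change was -0.26, with 35.3% of rows above 0. Leaving out 3-cell AB replicate 2 gave 12 calls (2.05%), all higher at 4 cells, or 17 when the rows tested were held at the same 643; no other AB library had that effect.

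The division of P2 was examined by comparing C, P3 and p4 with P2, together and one by one. Together, no row passed (0%), 54 rows (8.4%) had an unadjusted p under 0.05, and row 879 came closest with an adjusted p of 0.050034. By DESeq2 there were 8 calls (1.24%), of which 3 were higher in the descendants and 5 lower. C against P2 gave 0 calls (0%; 25 rows, 3.89%, at an unadjusted p under 0.05) and P3 against P2 gave 0 calls (0%; 48 rows, 7.47%), with 1 call each by DESeq2 (0.156%). These comparisons share the P2 libraries, so their values are not independent of each other.

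Row 879 had lower values in the descendants of P2, with a fold change whose size rested on 1 library. P2 read 754, 821, 1174 and 1259 CPM in 4 libraries and 10987 CPM in replicate 1. C read 491 and 507 CPM, p4 218 and 249 CPM, and P3 149.3, 316, 434 and 830 CPM. One P3 library therefore reached into the P2 range and the other 7 descendants lay below it. The fold change was -2.996 ± 0.66 (log2, 95% interval -4.34 to -1.65, edgeR quasi-likelihood adjusted p = 0.050034). Without P2 replicate 1 it was -1.15 with an adjusted p of 0.690. With any of the other 4 P2 libraries or P3 replicate 4 left out the row passed with fold changes between -3.69 and -3.46.

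In AB the fold change of row 879 had the opposite sign, with values that overlapped. AB ran from 147.2 to 2625 CPM with a median of 1458 at 3 cells and read 1605, 1691 and 2477 CPM at 4 cells, a log2 difference of 0.53 ± 0.78. The P2-branch difference minus the AB difference was -3.53 ± 0.99 (edgeR quasi-likelihood adjusted p = 0.372). At 5 cells the row read 1608 CPM in AB and 143.03, 384, 289 and 1462 CPM in the libraries titled C, C, P4 and p4, and it did not differ between 5 and 6 cells and 1 and 2 cells as a whole (0.42 ± 0.52, adjusted p = 0.681).

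Row 15188 had the smallest p among rows higher in the descendants of P2. P2 read 84.2, 439, 538, 1078 and 2031 CPM. C read 7089 and 8842 CPM, p4 4393 and 7090 CPM, and P3 781, 3736, 5486 and 7993 CPM. Of the 8 descendants 7 were above every P2 library, and how many tested rows separate likewise is not given here. The fold change was 2.99 ± 0.83 (edgeR quasi-likelihood adjusted p = 0.162), and DESeq2 called it. The row varied as widely elsewhere, from 156.3 to 4799 CPM in 3-cell AB, 1151 to 8857 CPM in 3-cell EMS and 234 to 13424 CPM at 2 cells. Its level at 5 and 6 cells did not differ from that at 1 and 2 cells past the spread (-0.16 ± 0.58, adjusted p = 0.911).

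Taken one by one, C and P3 each had row 879 as the row with the smallest p among those lower than in P2, at -2.62 ± 1.15 in C and -2.88 ± 0.87 in P3 (edgeR quasi-likelihood adjusted p = 0.968 and 0.307). Both comparisons use P2 replicate 1, which read 10987 CPM. With single libraries left out, the differences shrank to -0.80 in C and -1.04 in P3 at the least. In the higher direction C and P3 had other rows. Row 13422 read 393 and 962 CPM in C against 99.5, 122.8, 136.9, 176.7 and 295 CPM in P2, a difference of 2.33 ± 0.65 (log2, edgeR quasi-likelihood adjusted p = 0.401). The level of 393 CPM rests on 4 counts, and without C replicate 3, the higher library, the difference was 1.26 (adjusted p = 0.709). The 4-cell EMS library read 538 CPM, between the C libraries. Row 2834 read 149.5, 232, 591 and 1120 CPM in P3 against 66.2 to 140.4 CPM in P2, with no overlap, a difference of 2.54 ± 0.62 (adjusted p = 0.175). Without P3 replicate 3 the difference was 1.59 (adjusted p = 0.921). Both C libraries, at 321 and 393 CPM, were also above every P2 library, with a difference of 1.85 ± 0.75 (edgeR quasi-likelihood adjusted p = 0.968). The level of 393 CPM again rests on 4 counts. How many of the tested rows separate from P2 in this way is not given here. In p4 row 2834 read 43.5 and 186.6 CPM, so the libraries titled p4 did not share the level of the highest P3 libraries. In 4-cell AB row 2834 read 129.3, 235 and 516 CPM, above the 3-cell AB median in all 3.

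The test of whether the stage difference itself differed between the P2 branch and AB called 0 rows (0%), and DESeq2 called 0, while 24 rows (3.73%) had an unadjusted p under 0.05. Row 16091 had the smallest p, with a difference of differences of -3.96 ± 1.07 (edgeR quasi-likelihood adjusted p = 0.372). It read 5473 CPM in P2 replicate 1 and 274 to 851 CPM in the other 4 P2 libraries, and 93.3 to 485 CPM in the descendants. In AB it read 270 to 881 CPM at 3 cells and 358, 509 and 4128 CPM at 4 cells. The difference of differences was -2.48 without P2 replicate 1 and -2.25 without 4-cell AB replicate 3, the highest of those AB libraries. Row 8156 led the other direction at 3.07 ± 1.19 (adjusted p = 0.978), with 98.2 to 1829 CPM in the descendants against 42.1 to 182.4 CPM in P2.

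The AB and P2 branches, which share no library, had fold changes of the same sign in the larger part of the rows. Over the 643 rows the 2 sets of fold changes correlated at r = 0.300, and 390 rows (60.7%) had the same sign, as a description over rows that share the normalization. Of the rows, 4 had an unadjusted p under 0.05 in both branches, and all 4 had the same sign in both. In both branches sample numbers above 100 occur on the 4-cell side alone, and the 4-cell libraries were shallower on average. The part of either in the shared signs was not tested.

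**Figure D4:**
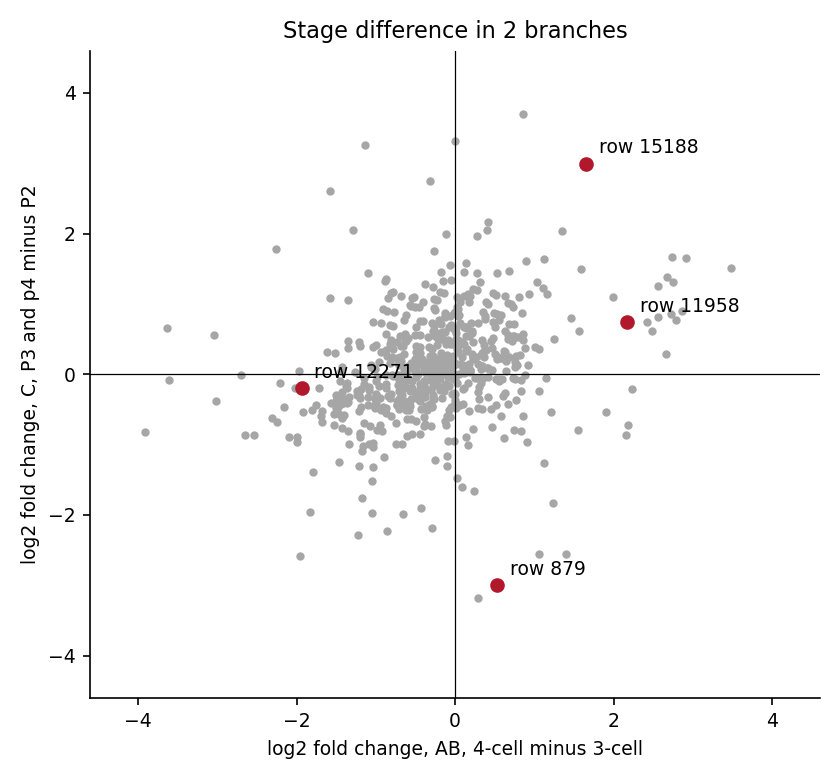
Log2 fold change from 3 to 4 cells within AB (horizontal) against that from P2 to C, P3 and p4 (vertical), 1 point for each of the 643 tested rows. The cloud leans along the diagonal (r = 0.300), row 11958 and row 15188 are above 0 on both axes, and row 879 lies low on the vertical axis alone.

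Libraries outside the comparison gave lists of rows to follow through the 3- and 4-cell stages. Between 1 or 2 cells (17 libraries) and 5 or 6 cells (11 libraries), 58 of 929 rows (6.24%) were called by edgeR's quasi-likelihood test, 43 higher (4.63%) and 15 lower (1.61%) at 5 and 6 cells. The count moved from 29 without 5-cell C replicate 1 to 99 without 5-cell C replicate 2. Of the 15 lower rows, 8 were tested between the 4- and 3-cell stages, and all 8 had a negative fold change, with a median of -0.53 against -0.02 over all rows. Of the 8, 1 (12.5%) had an unadjusted p under 0.05, near the 9.8% of all rows. In AB the same 8 were all negative with a median of -0.92, where all rows had a median of -0.26 and 35.3% above 0. In the P2 branch 6 of 8 were negative with a median of -0.19, where all rows had a median of 0.09 and 55.4% above 0. Of the 43 higher rows, 22 were tested, and 13 (59.1%) were positive with a median of 0.06, against 49.1% of all rows. Of the 22, 3 (13.6%) had an unadjusted p under 0.05, against 9.8% of all rows, and 1 of the 3 was higher. In AB 9 of the 22 (40.9%) were positive with a median of -0.64, against 35.3% of all rows. There 6 (27.3%) had an unadjusted p under 0.05, against 5.6% of all rows, and 5 of the 6 were lower. In the P2 branch 14 (63.6%) were positive with a median of 0.45, against 55.4% of all rows. There 3 (13.6%) had an unadjusted p under 0.05, against 8.4% of all rows, and 2 of the 3 were higher.

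The 15 lower rows took a median of 0.469% of counts at 1 cell, 0.342% at 2 cells, 0.222% at 3 cells, 0.231% at 4 cells, 0.0445% at 5 cells and 0.0710% at 6 cells. The 3- and 4-cell libraries thus covered the same range, from 0.0516% to 0.548% and from 0.0516% to 0.547%. The 43 higher rows took 1.05%, 0.754%, 1.21%, 1.42%, 3.07% and 3.07% in the same order. Single libraries reached 10.8% (3-cell AB replicate 2) and 7.47% (4-cell AB replicate 2). In AB the higher rows took 0.862% to 10.8% at 3 cells and 2.52%, 3.24% and 7.47% at 4 cells, which overlapped.

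**Figure D5:**
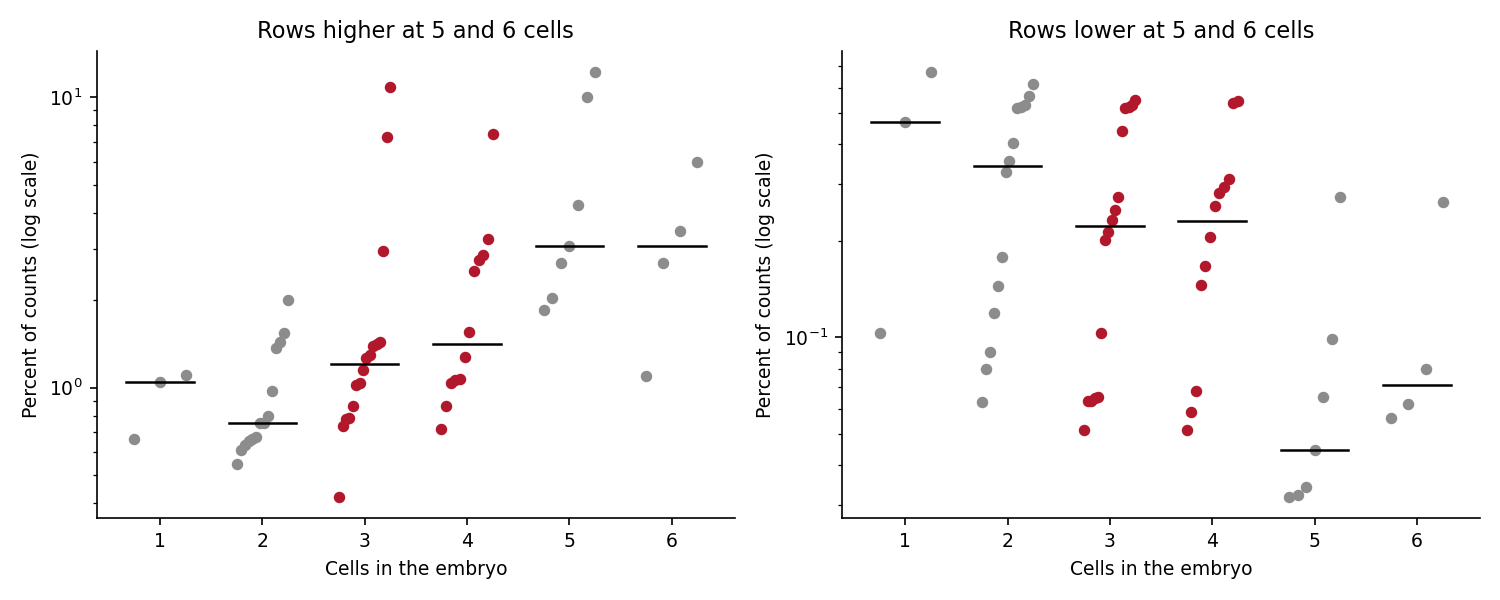
Percent of each library's counts, on a log axis, in the 43 rows higher (left) and the 15 rows lower (right) at 5 and 6 cells than at 1 and 2 cells; points are libraries, lines are medians, and red marks the 3- and 4-cell libraries. The 3- and 4-cell libraries overlap in both panels, while the grey libraries are those that chose the rows, so their difference is a description.

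The 2 rows with the smallest p of each list were followed in the 3- and 4-cell libraries. Row 15641 and row 2613, higher at 5 and 6 cells by 4.25 ± 0.74 and 3.68 ± 0.67 (log2, edgeR quasi-likelihood adjusted p = 0.00182 for both), had single high libraries. Row 15641 read 9630 CPM and row 2613 read 9785 CPM in 5-cell C replicate 1, and 5698 and 6557 CPM in 3-cell AB replicate 8. In the 4-cell libraries row 15641 read 0 to 435 CPM and row 2613 62.2 to 565 CPM. Row 9493 and row 5896, lower at 5 and 6 cells by -1.52 ± 0.33 (adjusted p = 0.00358) and -2.37 ± 0.54 (adjusted p = 0.00598), overlapped between 3 and 4 cells. Row 9493 read 29.4 to 267 CPM at 3 cells and 71.2 to 529 CPM at 4 cells, and row 5896 read 0 to 517 CPM and 0 to 1368 CPM, with the highest value of each in a p4 library.

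More rows were found at 3 cells alone than at 4 cells alone, beside a larger number of counts at 3 cells. At least 1 count was found for 16826 rows in the 3-cell libraries, which held 1908393 counts together, and for 16546 rows in the 4-cell libraries, which held 602797. Of the rows, 12 were found at 4 cells and not at 3, in at most 3 libraries each, and 292 at 3 cells and not at 4. Of the latter, 40 were in 8 or more of the 16 3-cell libraries, and all 40 had a count in 1 or more of the 5- and 6-cell libraries. A count in 1 library is a low bar, met at 4 cells by the 16546 rows above. The share of all rows that met it at 5 and 6 cells is not given here, so it does not set the 40 apart. Row 10997 was in the most, 14 of 16 libraries at 16.8 CPM over the group. That level is 3.37 times a floor of 3 counts over the 4-cell group (4.98 CPM). It was found in 6 of 11 libraries of 5 and 6 cells, and its adjusted p without a filter on counts was 0.0675 (edgeR quasi-likelihood). Floors cover counting error at 4 cells alone, not the error of the 3-cell level or the spread between libraries. The part of depth in these numbers of rows was not tested.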

How the data were processed

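The authors deposited a table of counts of reads per row, as whole numbers, with 1 column per library and 16853 rows. CASAVA 1.8, Bowtie2 2.1.0 and HTSeq 0.5.4p3 are named in the submitters' processing notes without settings, and no source used here says how reads of the same molecule were counted. The highest count in the columns used was 1024, reached by 22 values, 2 of them in the kept libraries. Highest counts near it occurred over a wide range of totals, as 935 of 19380 in 4-cell AB replicate 3 and 1024 of 307179 in 3-cell AB replicate 1. Other shallow libraries had lower ones, as 400 of 25547 in 4-cell AB replicate 2. The name of a column is the sample number in the description, and groups were read from the titles. Of the columns, 9 have a name that could also be read as another sample's title, and they were not used; none is a 3- or 4-cell library. The deposited contig annotation does not pair its contigs with the rows and was not used. The rows, lists and groups were chosen with earlier results of these data known. Libraries under 10000 counts were left out.

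Counts were fitted with edgeR 4.0.16 (R 4.3.3, limma 3.58.1; TMM, filterByExpr with a minimum count of 10 and a minimum total of 15, robust quasi-likelihood) and p-values were adjusted over all rows tested. DESeq2 1.42.0, voom, other filters and scalings, thinning and omission of each library were alternatives. CPM divides counts by the library total, so levels are relative and RNA per cell was not measured. Whether a limit on the count of a row lowered the CPM of abundant rows in deep libraries was not tested. At the median total of 64142.5 counts, 10 counts are 155.9 CPM. Whole-library measures were compared by permutation (100000 resamples). The row with the smallest p in each direction was named where none was called, and up to 2 per direction where some were, if detected in over 50% of the libraries of the higher group. Such rows were picked in the libraries they are compared in, and the share of all tested rows that separate likewise is not given here. The scripts were tested on simulated data. P-values measure the spread between cells, and cells of 1 embryo may be among them.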

Additional observations from a re-analysis of the deposited data

Results flagged for a closer look

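Of 52 group values examined with 4 to 10 libraries each, 6 held a library far from the others. A rate of about 1 in 20 would hold for independent, normal and unselected values. The rows examined were named for small p in these same libraries, and several values share a library, so that rate is no benchmark here. The library 3-cell P2 replicate 1 accounted for 4 of the 6: 3347 rows detected in 10000 counts, 49.581% of its counts in its 100 highest rows, 10987 CPM of row 879 and 5473 CPM of row 16091. Leaving it out moved row 879 between P2 and its descendants from -2.996 to -1.15 (log2) and row 16091 in the comparison of branches from -3.96 to -2.48. The other two were row 8156 at 912 CPM in 3-cell AB replicate 4, against 102.8 to 409 CPM in the other 6 AB libraries, and row 16091 at 1579 CPM in 3-cell EMS replicate 8, against 253 to 306 CPM in the other 3. No cause was tested for any of them.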

How the results depend on the processing

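Of 278 values of named rows under another setting, 260 stayed on the same side of the threshold, 18 came to pass it and 0 changed sign. Settings in which a row left the test are not among the 278. The rows were picked for small p in these libraries and many settings leave out only 1 library, so signs had little room to change. With every row holding a count tested, edgeR called 24 rows between the stages, 10 within AB, 16 between P2 and its descendants, and 558 between 5 or 6 and 1 or 2 cells; 14 of the 20 rows higher between the stages had at least 50% of their counts in 1 library. DESeq2 called 12 between the stages, 1 within AB, 1 in C, 1 in P3 and 8 in all descendants. Thinning to 10000 counts left 65 rows and called 2 between the stages and 5 in the descendants. Without sample numbers above 100 there was 1 call between the stages and 1 in C, among 2138 rows. Leaving out each library gave 0 to 2 calls between the stages (2 without 3-cell AB replicate 2), 0 to 12 within AB (17 on the same rows), 0 to 1 in C (1 without C replicate 3), 0 to 6 in the descendants (1 to 2 on the same rows where any was called), and 29 to 99 for 5 or 6 against 1 or 2 cells. The cause was not tested.

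Deviations of same-numbered libraries of different stages had a mean r of -0.027 over 14 pairs (-0.807 to 0.568, 5 above 0.1). Within a stage the mean r was 0.040 over 18 same-numbered pairs and 0.0083 over 89 pairs of different numbers. Single pairs spread too widely for these means to show what a shared number stands for. With the replicate block 0 rows were called in all 6 comparisons of 3 and 4 cells, with 31 rows at an unadjusted p under 0.05 between the stages. Detected rows at full depth missed the unadjusted threshold in 5 of 5 alternatives: -1687 without the high numbers, -2182 at 20000 counts or more, -2484 over means per number, -4142 in AB and -1908 in the P2 branch. At equal depth the difference was 53.6 rows in the P2 branch, against -272. The difference in log10 total also missed it in 4 of 5: -0.21, -0.31, -0.52 and -0.24 in the same order without the depth limit, which itself kept the call. Likeness was -0.0222 over means per number and -0.0059 in AB, against 0.0278. Depth limits every row: 16210 rows were not tested.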

Other observations

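Row 11958 and row 879 were also read in the later libraries. Row 11958 had a median of 846 CPM over 4 libraries of the E2 stage (124.05 to 1098 CPM), 282 CPM over 14 of the E4 stage and 278 CPM over 11 of the comma stage. At 16 cells row 879 read 269.9 and 568.2 CPM in AB and 1229 CPM in the library titled MS. Row 879 had medians of 2476 CPM at E2, 1157 CPM at E4 and 1096 CPM at the comma stage. Over 607 rows tested in both, the fold changes from 3 to 4 cells and from 1 or 2 to 5 or 6 cells correlated at r = 0.255, and 384 rows (63.3%) had the same sign. These comparisons share no library, but in both of them sample numbers above 100 occur on the later side alone. Thinned to 10000 counts, the biological coefficient of variation was 83.1% at 3 cells and 69.7% at 4 cells.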
